A study of Mus musculus with 6 samples.

Results

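Genes of blood and lymphatic endothelium and of vascular growth signalling were followed in skin of mouse embryos with and without a Tcfap2c mutation. The set holds 32 genes, listed by symbol, out of 18194 genes with a single symbol on the array. A gene was represented by the probe set (a group of short probes for 1 transcript) with the highest mean log2 signal over all 6 samples, among those that the platform annotation pairs with exactly 1 symbol. All 32 genes had at least 1 such probe set and 61 in total. Of the 32, 30 had a mean above the median of all probe sets, a signal of about 114.5, and entered the test. Angpt1 and Prox1 lay below it and are given as signals.

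The samples were mouse skin at embryonic day 16.5, 3 labelled as Tcfap2c mutant and 3 as control, with 1 Affymetrix array each. Tcfap2c (current symbol Tfap2c) is the gene for AP-2 gamma, which regulates transcription in surface ectoderm and its derivatives. The allele, any Cre driver, the strain, the genotype of the controls and whether embryos were pooled or littermates are not given in the sources used here. The description field of the control samples mentions the mutation too, and the groups follow the titles. No label ties the samples to litters, so a p-value here speaks only for the spread among these 6 samples.

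Blood vessels are lined by endothelial cells, which are held together by adhesion proteins such as PECAM1 and VE-cadherin. They read vascular endothelial growth factors through the receptors Kdr, Flt1 and Flt4, with neuropilins as co-receptors, and angiopoietins through Tek. Transcription factors of the ETS family and the SoxF group (Sox7, Sox17 and Sox18) specify these cells. Lymphatic endothelium branches off under Sox18 and Prox1 and grows in response to Vegfc. In embryonic skin both vessel types form a plexus in the dermis, beneath the epidermis.

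RefSeq gave promoter windows (250 bases before to 50 after the gene start, build GRCm38.p6) for 18 of the 32 genes, 23 windows in all. Because the mutated gene encodes an AP-2 factor, the windows were searched on both strands for the letters GCCNNNGGC, a form of the AP-2 consensus. The letters were found in 6 of 23 windows (26.1%) and in 16.6% of all 32851 windows. They lay in windows of Egfl7, Eng, Tie1, Flt1, Flt4 and Erg, and 60 bases around each match follow, 5′ to 3′ on the gene's strand, with the match in capitals:

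Egfl7, chr2:26586571-26586630, plus strand: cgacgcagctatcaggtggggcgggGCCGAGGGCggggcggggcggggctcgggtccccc

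Eng, chr2:32646508-32646567, plus strand: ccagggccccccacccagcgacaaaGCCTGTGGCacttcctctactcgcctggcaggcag

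Tie1, chr4:118490040-118490099, minus strand: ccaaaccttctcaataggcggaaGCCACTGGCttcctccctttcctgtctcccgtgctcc

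Flt1, chr5:147726012-147726071, minus strand: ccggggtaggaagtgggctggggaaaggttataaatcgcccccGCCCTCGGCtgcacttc

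Flt4, chr11:49609615-49609674, plus strand: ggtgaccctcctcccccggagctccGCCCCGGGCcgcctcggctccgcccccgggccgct

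Erg, chr16:95459349-95459408, minus strand: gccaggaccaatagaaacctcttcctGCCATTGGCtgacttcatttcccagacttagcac

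The 6 genes with these letters had differences of -0.14 (Eng) to 0.24 (Erg) on the log2 scale (mutant minus control), and none passed the test. The Nrp2 window, whose gene had the smallest unadjusted p of the set, held no match. Nrp2 did not pass the adjusted test either. The 250 bases before its start, at chr1:62703067-62703316 on the plus strand, are shown only because of that unadjusted p:

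Nrp2: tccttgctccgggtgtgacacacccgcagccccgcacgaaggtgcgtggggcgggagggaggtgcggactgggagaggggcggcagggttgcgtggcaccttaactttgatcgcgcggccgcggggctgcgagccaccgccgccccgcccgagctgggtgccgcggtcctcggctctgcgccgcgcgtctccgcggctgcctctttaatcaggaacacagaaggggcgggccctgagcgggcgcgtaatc

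A letter match is a description of the sequence and not a binding site. Other letters searched were CGGAAG, 1 form of an ETS site (1 member window of 23, Tie1, and 16.9% of all). Shorter or other forms of the ETS site were not searched. The Sox letters were ACAAAG (5 windows, 21.7%, against 18.7%) and ACAATG (1 window, Erg, against 12.6%), and the E-box was CACGTG (1 window, Pdpn, against 7.15%). The ETS match of Tie1 shares bases with its AP-2 match.

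The arrays were scaled to 1 trimmed mean signal of 500, with medians of 110.4 to 131.5. Keratinocyte and fibroblast markers all passed the filter, with summed signals of 137601 to 185978 for 7 keratinocyte genes and 139650 to 159200 for 8 fibroblast genes. The targeted gene itself had signals of 1596, 1392 and 1247 in mutant samples 1, 2 and 3 and 1330, 1348 and 1193 in control samples 1, 2 and 3. The altered part of the gene is not given in the sources used here, and these signals do not check the labels. Mutant sample 1 stood apart, with a mean correlation to the other arrays of 0.94, where each other sample had 0.961 or more. The summed signal of 14 uterine, decidual and smooth muscle genes was 78133 in that sample and 4531 to 5387 in the other samples. For the probe set used for each tested gene of the set, values without mutant sample 1 are given where the sign turned or the value moved by over 1.5 times.

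No endothelial or vascular gene passed the test. The limma adjusted p was 1.0 for each of the 30 genes, and 0.609 or more without mutant sample 1. Over all 22518 probe sets tested, 1 passed an adjusted p of 0.05 (0.00444%), and 39 (0.173%) without mutant sample 1. At an unadjusted p under 0.05 there were 2 members, Nrp2 and Sox18, both lower in the mutant samples, or 6.67% of 30 beside 3.42% of all probe sets. Without mutant sample 1 there were again 2, Nrp2 and Sox7, beside 7.15%. The signals of the groups did not overlap for 3 members (10.0%), Nrp2 and Vwf lower and Erg higher, beside 8.33% of all probe sets. These shares rest on 2 and 3 genes.

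The differences were small. Of the 30 genes, 11 had a positive and 19 a negative log2 difference, from -0.43 (Sox18) to 0.33 (Sox17). The median was -0.06, beside -0.02 over all probe sets tested. Without mutant sample 1 it was 0.02, beside -0.01, so its sign rested on that sample. The 95% interval of the difference held 0 for 28 of the 30 genes and lay wholly between -1 and 1, that is within 2-fold either way on this scale, for 28. Lyve1 and Pdpn had intervals that reached beyond it. The median SD within groups was 0.23 for these genes and 0.24 for all probe sets, both on the log2 scale. Fewer endothelial cells and less RNA per endothelial cell cannot be told apart in whole skin.

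**Figure D1:**
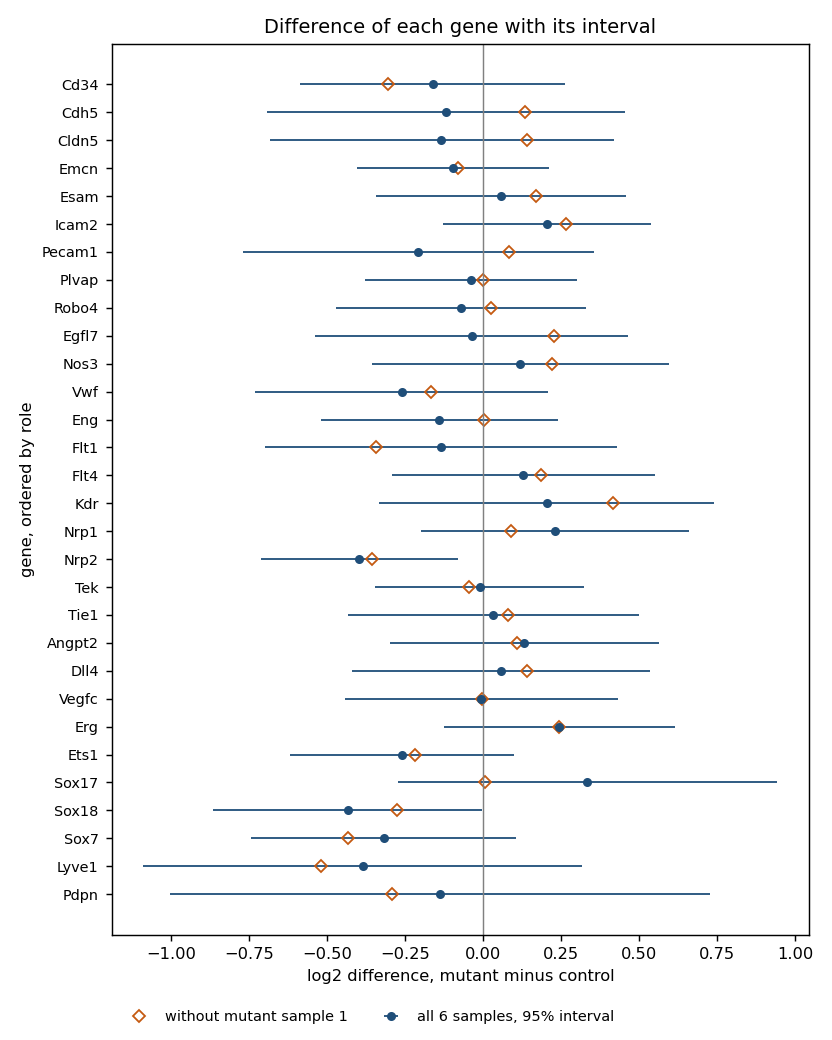
The log2 difference (mutant minus control, x axis) of each of the 30 tested genes (y axis, ordered by role), with filled points and bars for all 6 samples and their 95% interval and open diamonds for the value without mutant sample 1. Most intervals cross 0, those of Nrp2 and Sox18 do not, and Pecam1, Cdh5, Cldn5, Egfl7, Robo4 and Eng move from below to above 0 without mutant sample 1.

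Among surface and junction proteins of blood endothelium, 2 of 9 genes had a positive and 7 a negative difference, with a median of -0.10 and none at an unadjusted p under 0.05. The median was 0.08 without mutant sample 1, so the direction of this group rested on that sample. Pecam1, the adhesion protein also known as CD31, had signals of 586, 1134 and 1057 in mutant samples 1, 2 and 3 and of 1104, 868 and 1145 in control samples 1, 2 and 3. Mutant sample 1 was the lowest of the 6, and the other mutant samples lay within the control range. The log2 difference was -0.21 (SE 0.25, limma adjusted p = 1.0), and 0.08 without mutant sample 1.

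Cdh5, which encodes VE-cadherin of the adherens junction, gave 227, 406 and 399 in mutant and 426, 287 and 393 in control samples. Cldn5, a claudin of endothelial tight junctions, gave 496, 781 and 1027 against 859, 724 and 857. Both were lowest in mutant sample 1, and their groups overlapped. Their differences were -0.12 and -0.13, and 0.14 for each without that sample.

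Esam, an adhesion molecule of endothelial junctions, gave 982, 1213 and 1277 in mutant and 1346, 938 and 1068 in control samples, a difference of 0.06, and 0.17 without mutant sample 1. Robo4, a roundabout receptor of endothelium, gave 230, 281 and 293 against 284, 274 and 288, a difference of -0.07, and 0.03 without that sample. The sialomucin Emcn gave 993, 1094 and 969 against 1012, 1141 and 1124, a difference of -0.10 (SE 0.14). Its within-group SD of 0.09 on the log2 scale was the lowest of the set.

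Plvap, the diaphragm protein of capillary fenestrae, gave 650, 782 and 636 in mutant and 734, 664 and 724 in control samples, a difference of -0.04, and -0.002 without mutant sample 1. Cd34, a sialomucin also found on progenitor and mesenchymal cells, gave 3185, 2275 and 2433 against 3187, 2303 and 3372, a difference of -0.16, and -0.31 without mutant sample 1. The groups overlapped for Esam, Robo4, Emcn, Plvap and Cd34. Icam2, an adhesion ligand for leukocyte integrins, had the highest difference of the 9, at 0.20 (SE 0.15). Its signals were 934, 1097 and 1032 in mutant and 991, 845 and 816 in control samples, so that mutant sample 1 lay below control sample 1.

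Egfl7 and Vwf encode secreted proteins, a matrix protein of sprouting vessels and von Willebrand factor, and Nos3 encodes endothelial nitric oxide synthase. Egfl7 gave 485, 840 and 874 in mutant and 734, 711 and 741 in control samples, with mutant sample 1 again lowest. Its difference was -0.04, and 0.23 without that sample. Vwf gave 136.1, 170.4 and 170.2 against 220.2, 175.5 and 190.3. Every mutant sample lay below every control sample for Vwf, at a difference of -0.26 (SE 0.21, limma adjusted p = 1.0) and -0.17 without mutant sample 1, and the gap between the groups was small beside the spread within them. Nos3 gave 281, 343 and 363 in mutant and 275, 249 and 389 in control samples, an overlapping pair of groups with a difference of 0.12, and 0.22 without mutant sample 1.

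Of these 12 surface and secreted genes, 11 lay below their 6-sample mean in mutant sample 1, and 11 did so in control sample 2. Mutant sample 1 was the lowest of the 6 for 6 of the 12, and for 31.0% of all probe sets. The mean deviation on the log2 scale was -0.27 in mutant sample 1, 0.09 in mutant samples 2 and 3, 0.11 in control sample 1, -0.12 in control sample 2 and 0.10 in control sample 3. In mutant sample 1 the mean deviation was -0.21 for the keratinocyte genes, -0.03 for the fibroblast genes and 2.69 for the 11 tested uterine, decidual and smooth muscle genes. Of the other vascular genes described below, 22 endothelial markers averaged 0.24 there, 13 transcription factors 0.18 and 8 growth factor and receptor genes 0.18. The 10 Notch and ephrin genes averaged -0.187 and the 7 BMP and TGF-beta genes -0.195. Low values in mutant sample 1 were thus not particular to these 12 genes. The keratinocyte, Notch and ephrin, and BMP and TGF-beta lists were low there too, and the other 3 vascular lists were not. The part of other tissue in the low values was not tested.

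**Figure D2:**
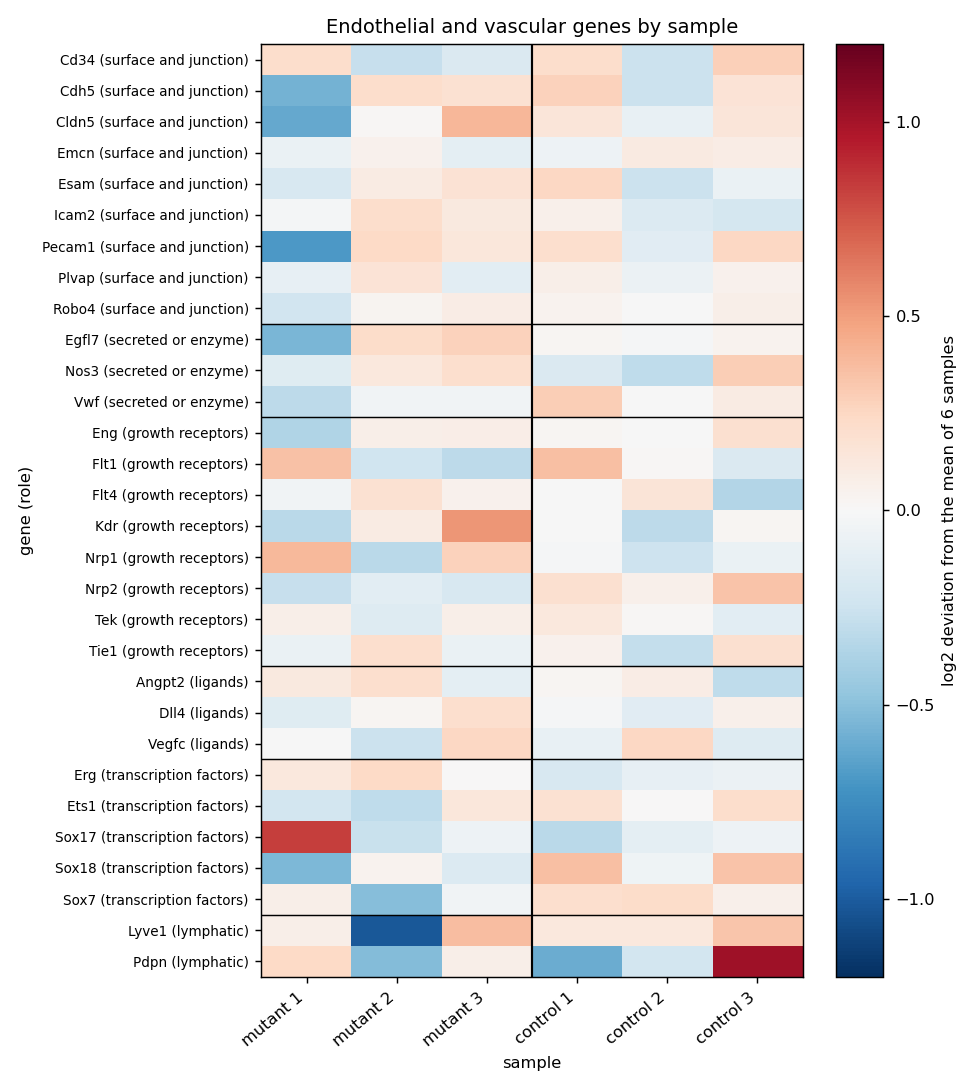
Log2 deviation of each of the 30 tested genes (rows, with role) from its mean over 6 samples, in each sample (columns; the vertical line separates mutant from control samples), blue for lower and red for higher. Pecam1, Cdh5, Cldn5 and Egfl7 are blue in mutant sample 1, Lyve1 is blue in mutant sample 2, and no block of rows separates the groups.

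Growth factor receptors and co-receptors gave 4 positive and 4 negative differences with a median of 0.01, and 0.04 without mutant sample 1. Kdr, the main signalling receptor for Vegfa, had signals of 275, 377 and 519 in mutant and 350, 277 and 356 in control samples. The highest and the lowest of these signals were both mutant samples. The difference was 0.20 (SE 0.24), 0.42 without mutant sample 1 and -0.01 without mutant sample 3, which held the highest value.

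Flt1, a receptor that also exists as a soluble decoy, gave 275, 175 and 164 in mutant and 277, 213 and 184 in control samples. The groups overlapped, at -0.13, and -0.34 without mutant sample 1. Its 3 tested probe sets gave -0.13, 0.17 and 0.30, so they differed in sign. Without mutant sample 1 these probe sets gave -0.34, -0.09 and 0.09. Which isoforms they read is not given in the sources used here. Flt4, the receptor for Vegfc on lymphatic endothelium, gave 368, 437 and 396 in mutant and 381, 428 and 294 in control samples, a difference of 0.13.

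Tek, the angiopoietin receptor, gave 834, 713 and 836 in mutant and 869, 805 and 728 in control samples. Its difference was -0.01, -0.05 without mutant sample 1 and 0.005 with quantile normalization. Tie1, a relative of Tek that modulates its signal, gave 220.3, 273.3 and 220.2 against 243.4, 187.1 and 270.1, a difference of 0.03, and 0.08 without mutant sample 1. The groups overlapped for Flt4, Tek and Tie1. Eng, a co-receptor in endothelial BMP signalling, gave 634, 862 and 867 against 833, 816 and 943, with mutant sample 1 lowest. Its difference was -0.14, and 0.004 without that sample.

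Nrp2, a co-receptor for Vegfc on lymphatic and venous endothelium that neurons and other cells make as well, had the smallest unadjusted p of the set, at 0.0192. The brightest probe set gave 947, 1057 and 1007 in mutant and 1325, 1205 and 1468 in control samples. All mutant samples lay below all control samples. The difference was -0.40 (SE 0.14, limma adjusted p = 1.0), a 1.32-fold lower signal, with a 95% interval of -0.71 to -0.08. It was negative in all 15 other settings, from -0.47 to -0.32, and at an unadjusted p under 0.05 in 13 of them. The exceptions left out control sample 1 or control sample 3.

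The other Nrp2 probe sets were also lower in the mutant samples. A pair above the filter differed by -0.30 and -0.27, and their groups overlapped. The dimmest lay below the filter, with signals of 52.9, 60.4 and 68.7 in mutant and 157.9, 158.2 and 147.9 in control samples, and its groups did not overlap. In the fit without a filter its difference was -1.08 (SE 0.28, limma adjusted p = 1.0). That is 2.11-fold lower after 24.48 was added to each signal, which narrows the gap of so dim a probe set. The mean signals themselves were 60.7 in mutant and 154.6 in control samples. The size of the Nrp2 difference thus depended on the probe set, and its direction did not. Probe sets of 1 gene read the same RNA samples and are not replicates.

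Nrp1, the co-receptor for Vegfa, went the other way at its brightest probe set, with signals of 4267, 2587 and 3922 in mutant and 3204, 2734 and 3060 in control samples. The groups overlapped, the difference was 0.23 (SE 0.19) and 0.09 without mutant sample 1, and 3 of its 4 tested probe sets were positive. The difference between Nrp1 and Nrp2 was not tested.

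**Figure D3:**
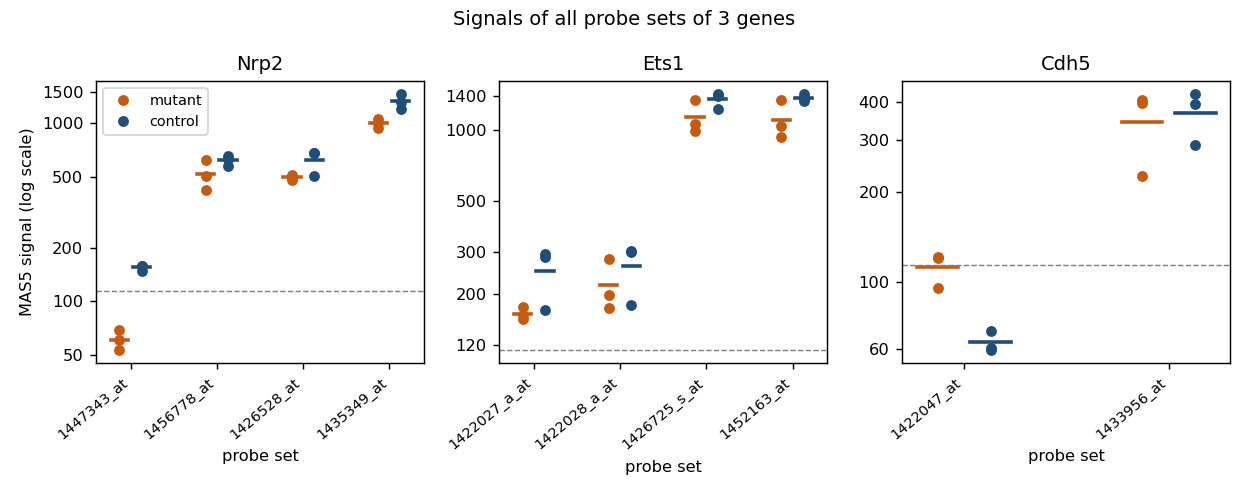
MAS5 signal (y axis, log scale) of each probe set of Nrp2, Ets1 and Cdh5 (x axis) in the 3 mutant and 3 control samples (points), with the group mean as a bar and the filter at 114.5 as a dashed line. All 4 Nrp2 and all 4 Ets1 probe sets have a lower mutant mean, and the pair for Cdh5 differ in direction.

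Of the 4 ligands, 3 were tested, and their groups overlapped. Angpt2, the context-dependent Tek ligand of sprouting vessels, gave 324, 347 and 272 in mutant and 303, 318 and 236 in control samples, a difference of 0.13. Dll4, the Notch ligand of tip cells, gave 142, 162 and 187 against 158, 143 and 168, a difference of 0.06, and 0.14 without mutant sample 1. Vegfc, the lymphatic growth factor, gave 434, 362 and 525 against 410, 523 and 390, a difference of -0.01. The 3 tested Vegfc probe sets gave -0.01 to 0.19, and the sign of the one used turned with quantile normalization (0.03). Angpt1, the stabilising Tek ligand of mural cells, lay below the filter, with signals of 112.4, 104.3 and 105.8 in mutant and 103.8, 89.5 and 131.6 in control samples.

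Of the 5 endothelial transcription factors, 2 had a positive and 3 a negative difference, and none passed the test. Their median was -0.26, and it stayed negative without mutant sample 1, at -0.22. Sox18, which drives lymphatic specification, had signals of 887, 1340 and 1157 in mutant and 1673, 1252 and 1651 in control samples. Of the mutant samples, 1 and 3 lay below every control sample, and mutant sample 2 lay above control sample 2. The difference was -0.43 (SE 0.19, limma adjusted p = 1.0), a 1.35-fold lower signal, at an unadjusted p of 0.048 and with an interval of -0.87 to -0.005. It was -0.28 without mutant sample 1, at an unadjusted p of 0.111.

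Sox7, of the same SoxF group, gave 540, 353 and 496 in mutant and 592, 599 and 534 in control samples. Mutant sample 1 lay just above the lowest control sample. The difference was -0.32 (SE 0.19), and -0.43 without mutant sample 1, at an unadjusted p of 0.0367 (limma adjusted p = 0.658). The third member, Sox17, an arterial factor, gave 997, 456 and 529 against 435, 508 and 529. Its difference of 0.33 (SE 0.27) rested on mutant sample 1, and was 0.005 without it. Its other probe set gave 0.00.

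Erg, an ETS factor that maintains endothelial identity, gave 361, 394 and 329 in mutant and 285, 305 and 312 in control samples. Each mutant sample lay above each control sample. The difference was 0.24 (SE 0.16, limma adjusted p = 1.0), a 1.18-fold higher signal, with an interval of -0.13 to 0.61 and an unadjusted p of 0.17.

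Ets1, an ETS factor of endothelium that lymphocytes and mesenchyme express too, gave 1058, 991 and 1352 in mutant and 1400, 1234 and 1430 in control samples. Mutant samples 1 and 2 lay below the controls and mutant sample 3 among them. The difference was -0.26 (SE 0.16), and the 4 tested probe sets lay between -0.51 and -0.24, none at an unadjusted p under 0.05. In 2 of 15 other settings, the mean over probe sets and the fit without mutant sample 3, Ets1 was under it.

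Lymphatic markers varied most between samples of 1 group. The median of the 2 tested, Lyve1 and Pdpn, was -0.26, and -0.41 without mutant sample 1. Lyve1, a hyaluronan receptor of lymphatic endothelium that some tissue macrophages carry as well, gave 1551, 714 and 1908 in mutant and 1607, 1605 and 1861 in control samples. Mutant sample 2 was far below all other samples, and its second probe set gave 670 there against at least 1247 elsewhere. The difference was -0.39 (SE 0.31, limma adjusted p = 1.0), and 0.03 without mutant sample 2.

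Leukocyte markers were low in the same sample. All 10 lay below their 6-sample mean in mutant sample 2. That sample was the lowest of the 6 for 8 of them, and for 22.0% of all probe sets. Their summed signal was 9848 there, 13847 and 18036 in the other mutant samples and 12465 to 13308 in controls. Mrc1, a receptor of tissue macrophages, was at 1525 in mutant sample 2 and at 2665 to 3345 in the rest. None of the 10 was at 0, and the part of macrophage RNA in the Lyve1 signal was not tested. Low values in mutant sample 2 were not particular to leukocyte genes, whose mean deviation there was -0.36. It was -0.22 each for 22 further endothelial markers, 13 further transcription factors and 10 mural markers. For the 12 surface and secreted genes it was 0.09, and for the 7 keratinocyte genes 0.21.

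Pdpn, a mucin-type protein of lymphatic endothelium, keratinocytes and fibroblasts, gave 1268, 739 and 1128 in mutant and 702, 915 and 2197 in control samples. Its within-group SD of 0.66 on the log2 scale was the highest of the 30 genes, and control sample 3 stood above the rest. The difference was -0.14 with all samples, 0.34 without that one and -0.29 without mutant sample 1. Prox1, the master factor of lymphatic identity, lay below the filter in all 3 probe sets. The brightest gave 114.1, 44.4 and 76.4 in mutant and 66.2, 54.3 and 68.7 in control samples, and the groups overlapped.

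**Figure D4:**
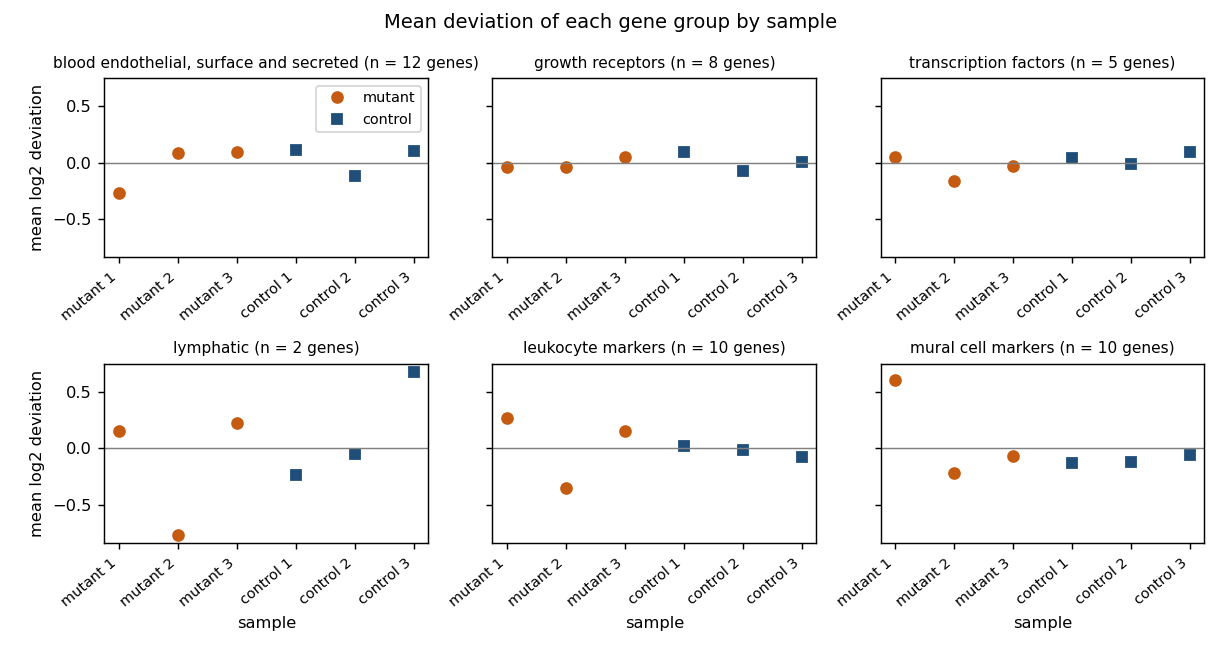
Mean log2 deviation (y axis) of 4 groups of the set and of leukocyte and mural cell markers in each sample (x axis), circles for mutant and squares for control samples. Blood endothelial surface and secreted genes are lowest in mutant sample 1 at -0.27, lymphatic and leukocyte genes are lowest in mutant sample 2, and mural markers are highest in mutant sample 1 at 0.61.

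Other genes of vascular biology were alike in that none passed the adjusted test, and unlike in the sign of the median. For the 30 tested members the median was -0.06, and 0.02 without mutant sample 1. A list of 66 measured genes covers further growth factors and receptors, the Notch, ephrin and BMP branches, further endothelial transcription factors and further endothelial markers. Of these, 60 entered the test, with 32 positive and 28 negative differences and a median of 0.03 (-0.02 without mutant sample 1). None passed the adjusted test, and 1 had an unadjusted p under 0.05, beside 3.42% of all probe sets. That gene was Aqp1, the water channel of capillary endothelium and red cells, at 1943, 2440 and 2056 in mutant and 2678, 2531 and 2853 in control samples. All mutant samples lay below the controls, at a difference of -0.33 (SE 0.14, limma adjusted p = 1.0) and an unadjusted p of 0.0397, which was 0.0641 without mutant sample 1. Ramp2, a partner of the adrenomedullin receptor, was the other gene of this list whose groups did not overlap, at -0.13. These were 2 of 60 genes, beside 8.33% of all probe sets.

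Vegfa, the main growth factor for Kdr, differed by 0.22 (SE 0.17), with signals of 802, 629 and 623 against 626, 637 and 491. The groups overlapped, and the difference was 0.10 without mutant sample 1 and 0.10 without control sample 3. The medians were 0.06 for 8 growth factor, receptor and related genes, Vegfa among them, and -0.12 for 10 of Notch and ephrin signalling. They were -0.11 for 7 of BMP and TGF-beta signalling, 0.03 for 13 transcription factors and 0.08 for 22 endothelial markers. Without mutant sample 1 these medians were -0.10, 0.10, 0.01, -0.04 and -0.06, so all 5 turned sign.

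Mural cells, the pericytes and smooth muscle around vessels, were read by 10 markers, whose median was 0.02, and -0.04 without mutant sample 1. Their summed signal was 14324 to 15761 in controls, 13753 and 15355 in mutant samples 2 and 3, and 47394 in mutant sample 1, where the smooth muscle genes Tagln and Acta2 were at 13814 and 23703. Rgs5, a regulator of G protein signalling in pericytes, was the 1 mural marker of 10 at an unadjusted p under 0.05 (beside 3.42% of all probe sets), the 1 whose groups did not overlap (beside 8.33%), and was named after its values were seen. It gave 3105, 2533 and 2307 in mutant and 1685, 2204 and 1835 in control samples. Each mutant sample lay above each control sample, at a difference of 0.47 (SE 0.16, limma adjusted p = 1.0) and 0.35 without mutant sample 1. The pericyte receptor Pdgfrb differed by 0.04, and -0.03 without mutant sample 1, and the proteoglycan Cspg4 by -0.01. Of the 10 mural markers, 5 had a positive and 5 a negative difference, the lowest at -0.25.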

How the data were processed

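The authors deposited 1 linear intensity (MAS5 signal) for each probe set and array, and MAS5 is named, without a version, in the submitters' processing notes. With 2% trimmed at either end, every array averaged 500. Per the labels' protocols, a Qiagen kit gave the RNA, which carried a biotin label. Signals were analysed as log2(signal + 24.48), the pseudocount being percentile 20 of the whole table. Fold values were taken on that scale too, where differences of dim genes come out too small. The 64 control probe sets were left out, and the filter kept 22518 of 45101. Groups were compared with limma 3.58.1 in R 4.3.3 (two-sided, mean-variance trend, Benjamini-Hochberg over all tested, threshold 0.05). On simulated data for this comparison (22518 probe sets, 200 changed) the fit recovered 44.8% of changes of 1 and 86.6% of changes of 2 on the log2 scale, with 3.8% false among calls. The simulation drew independent normal values with 1 SD per probe set. It held no outlying array such as mutant sample 1, so its shares may not hold for these arrays. The members, lists and tests were chosen with earlier results of these data known. The naming rule took all members, other vascular genes under an unadjusted p of 0.05 (up to 3 in each direction) and Vegfa. Mrc1, Ramp2, Rgs5, Pdgfrb, Cspg4, Acta2, Tagln and Procr were named outside it, after their values were seen. The leukocyte, mural, fibroblast, keratinocyte, nerve and uterine lists were used as lists, with medians of 0.06, 0.02, -0.03, -0.03, 0.02 and 0.79 in that order. Without mutant sample 1 the medians were -0.045, -0.038, -0.033, 0.073, 0.127 and -0.073 in the same order. Alternatives were the pseudocount, filter, scaling, variance trend, array weights, replicate block, probe set rule and each sample left out. Signals of different probe sets were not compared as levels. A planned comparison of protein sequences was not run. Figures were drawn with matplotlib 3.10.9.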

Additional observations from a re-analysis of the deposited data

How the results depend on the processing

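The precision is set by 3 arrays per group, and a p that misses the threshold does not show that a gene is alike in both groups. In 15 other settings no member passed an adjusted p of 0.05 (lowest 0.238, with array weights). The sign was followed in 32 genes, which were the tested members plus Vegfa and Aqp1, without Angpt1 and Prox1. Of their 480 gene values, 36 had the other sign, in 19 genes that were all members. The causes were not tested.

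At an adjusted p of 0.05 the whole table gave 1 call with all samples, 106 with array weights, 8 with the replicate number as a block, and 1 to 39 with 1 sample left out, highest without mutant sample 1. The correlations between samples of equal number, after removal of group means, were -0.0525, -0.0735 and 0.115, so the numbers were not taken as pairs. Members at an unadjusted p under 0.05 numbered 2 with all samples, beside 3.42% of all probe sets. They numbered 1 with quantile normalization (3.53% of all), without the variance trend (3.93%) or with the replicate block (3.06%). The mean over probe sets gave 3 (Sox18, Ets1 and Nrp2, beside 3.96%). Array weights gave 4 (Kdr, Sox18, Nrp1 and Nrp2, beside 11.2% of all probe sets). With 1 sample left out there were 0 to 3, beside 1.94% to 7.15%. The number was 0 without control sample 1 (2.3%) or control sample 3 (1.94%). Members with separate groups numbered 3 with all samples, beside 8.33% of all probe sets. With any 1 sample dropped, where fewer samples have to be separated, they numbered 5 to 8, beside 13.9% to 22.7%. The 8 were seen without mutant sample 1, beside 22.7%.

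The median of the members was -0.056, 0.014 with array weights and -0.089 to 0.015 with 1 sample left out. That of the other vascular genes was 0.032, and -0.022 (without mutant sample 1) to 0.081 with 1 left out. It was -0.018 without control sample 3.

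With array weights, which gave mutant samples 1, 2 and 3 weights of 0.257, 0.56 and 3.13, the other sign was seen for Pecam1 (0.002), Cdh5 (0.085), Tek (0.028), Tie1 (-0.013), Egfl7 (0.195), Cldn5 (0.217), Robo4 (0.025), Angpt2 (-0.001) and Vegfc (0.153). With quantile normalization it was seen for Tek (0.005) and Vegfc (0.03), and with the mean over probe sets for Flt1 (0.111) and Vegfc (0.103). With 1 sample left out the ranges that held both signs were -0.379 to 0.084 for Pecam1, -0.278 to 0.135 for Cdh5, -0.013 to 0.416 for Kdr, -0.344 to 0.011 for Flt1, -0.014 to 0.24 for Flt4, -0.076 to 0.062 for Tek, -0.105 to 0.134 for Tie1, -0.059 to 0.196 for Esam, -0.182 to 0.227 for Egfl7, -0.367 to 0.14 for Cldn5, -0.131 to 0.013 for Plvap, -0.134 to 0.025 for Robo4, -0.215 to 0.004 for Eng, -0.001 to 0.296 for Nos3, -0.667 to 0.028 for Lyve1, -0.469 to 0.338 for Pdpn, -0.133 to 0.12 for Vegfc and -0.032 to 0.141 for Dll4.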

Other observations

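The second probe set of Cdh5 lay below the filter and was higher in every mutant sample, with signals of 96.0, 120.4 and 121.7 in mutant and 59.4, 60.6 and 69.1 in control samples. In the fit without a filter its difference was 0.64 (SE 0.30, limma adjusted p = 1.0), where the probe set used gave -0.12. A dim Prox1 probe set was lower in every mutant sample, at 40.6, 27.2 and 44.1 against 75.7, 48.1 and 81.9, with a difference of -0.58 (SE 0.33, limma adjusted p = 1.0). The brightest Prox1 probe set gave 0.18.

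Procr, the endothelial protein C receptor, had the highest difference of the other vascular genes (0.60, SE 0.56). It was at 1378 in mutant sample 1 and at 197 to 324 in the other samples. Without mutant sample 1 the difference was -0.18. Of 10 members with more than 1 tested probe set, 5 had the same sign in all of them.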
